A study of Rattus norvegicus with 12 samples.

Results

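Solute carriers are the large class of membrane proteins, sorted into numbered Slc families and the Slco family, that move ions, sugars, amino acids, nucleosides, organic anions and metals across cell and organelle membranes. Here they were described in rat lung after trauma and hemorrhagic shock. A gene was included when its platform symbol began with Slc and a digit, Slc2a1 set aside, or with Slco, and where several probe sets carried that symbol alone, the one with the highest mean over all 12 arrays stood for the gene. This gave 125 genes of the 4736 with a single-symbol probe set, measured by 186 probe sets of the 8740 tested.

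The samples were whole lungs of male Sprague-Dawley rats, with RNA hybridised to 12 Affymetrix rat genome arrays and 3 arrays a group. All 4 groups had a laparotomy, which is the trauma. T/SS rats were cannulated but not bled (trauma with sham shock), and T/HS rats were bled to a mean arterial pressure of 30 mmHg for 90 min and then given their blood back. In the T/SS-LDL group and the T/HS-LDL group, the sham or shock procedure was joined by ligation of the intestinal (mesenteric) lymph duct. Lungs were taken 3 h after the sham or shock period, 4.5 h after its start. By the study's account, T/HS lungs were injured and those of the other 3 groups were not. The study set T/HS against T/SS for shock with injury, T/HS against T/HS-LDL for injury, and T/HS-LDL against T/SS-LDL for shock without injury.

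In the lung, solute carriers serve several known tasks. Endothelial cells of the lung take up serotonin and prostaglandins from the blood that passes through, nucleoside transporters set how much adenosine stays outside cells, and cotransporters of sodium, potassium and chloride help to set the fluid layer and cell volume. Carriers of the Slc25 family lie mainly in the inner mitochondrial membrane and pass nucleotides, phosphate and metabolites between the mitochondrion and the cytosol.

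Values are log2 of the deposited intensity, so a difference of 1 is a 2-fold difference. In each group, 1 pair of arrays was nearly identical, with a robust SD of their log2 differences of 0.00993 to 0.0548, against 0.164 to 0.232 for the other pairs of the same group. Each such pair was averaged and counted as 1 sample, which left 8 samples, 2 per group. Values below are given for T/SS in the order replicate 1, then replicates 2 and 3 averaged, and for each other group in the order replicates 1 and 3 averaged, then replicate 2. T/HS replicate 2 stood far apart in 1 list of marker genes, the 8 measured interferon responsive genes. These summed to 121381 intensity units there and to 11991 to 15331 in the other 7 samples. The measured alveolar type II cell markers, 6 of 9 listed, summed to 113575 to 131501 across the 8 samples. Alveolar type I cell markers, 4 of 6 measured, summed to 59720 to 59944 in T/SS, 48140 to 56458 in T/HS, 55288 to 57817 in T/SS-LDL and 51079 to 54183 in T/HS-LDL. Fat and mesothelium markers, 6 of 9 measured, summed to 24326 to 25476, 19002 to 21524, 24091 to 25966 and 26248 to 26854 in the same order. Type I cell markers and fat and mesothelium markers each had their lowest sum of the 8 samples in T/HS replicate 2 (48140 and 19002). Red cell and platelet markers, 5 of 9 measured, summed to 45419 to 55947 over the 8 samples. The part of these cell types in the solute carrier values was not tested. Since RNA came from whole lung, fewer cells of a type and less RNA per cell cannot be told apart.

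Of the 125 genes, 65 lay above the array median on all 12 arrays, 9 on some and 51 on none. By the definition of a median, as many of all probe sets lie above it as below it on each array. The brightest probe set stood for each gene, and fewer genes were above with the mean of a gene's probe sets. The array medians were 651 to 680 intensity units. A value above the median describes the probe set's signal and is not a call of presence: probe sets of genes best known from kidney or brain, such as the kidney phosphate cotransporter Slc34a1 (mean log2 10.82) and the vesicular acetylcholine transporter Slc18a3 (9.88), were also above it on all 12 arrays.

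The mitochondrial carriers were above the median most often for a large group, with 10 of 12 on all arrays. Among them were Slc25a3, the phosphate carrier, with a mean log2 signal of 13.82, and the ADP/ATP carriers Slc25a5 (13.04) and Slc25a4 (12.71). Slc25a23 and Slc25a30 were the members below it on every array.

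Of 20 transporters of ions, acid and base, 10 were above the median on all arrays and 10 on none. Those above included the sodium-calcium exchanger Slc8a1 (mean log2 12.37), the potassium-chloride cotransporter Slc12a4 (11.81) and the chloride-bicarbonate exchanger Slc4a2 (11.78). Of the 6 cation-chloride cotransporters of the Slc12 family 4 were above it on all arrays, and of the sodium-proton exchangers Slc9a2, Slc9a3 and Slc9a4 none was above it on any. Of 20 transporters of neurotransmitters, creatine and taurine, 11 were above it throughout, including the glycine transporter Slc6a9 (12.50), the serotonin transporter Slc6a4 (11.02) and the creatine transporter Slc6a8 (10.66).

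Transporters of organic ions, bile acids and drugs were mostly low, with 4 of 16 above the median on all arrays and 11 on none. The 4 were the prostaglandin transporter Slco2a1 (mean log2 14.50), the organic anion transporter Slc22a7 (11.51), the carnitine transporter Slc22a5 (10.81) and Slco1a4 (10.41). On Slco2a1 the signal was 60% to 80.4% of the brightest value on the same array, so its probe set lay near the top of the range. Monocarboxylate transporters numbered 2 of 6 above the median on all arrays, Slc16a3 (10.73) and Slc16a1 (9.75), and metal transporters 1 of 7, the iron transporter Slc11a2 (10.95).

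In the amino acid group 5 of 10 were above the median on all arrays, among them Slc3a2 (mean log2 13.05), the heavy chain shared by several amino acid exchangers, its light chain partner Slc7a5 (11.09) and the glutamate transporter Slc1a1 (10.92). In the sugar transporter families 7 of 11 were above it, among them the vitamin transporter Slc5a6 (11.53), which falls there by family, the sodium-glucose cotransporter Slc5a1 (11.22) and the glucose 6-phosphate carrier Slc37a4 (10.85). Of the phosphate and sulfate families 3 of 5 were above it: Slc13a2 (10.95), a dicarboxylate transporter placed there by family, Slc34a1 and the phosphate transporter Slc20a2 (10.31).

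The small groups divided as follows. The nucleoside transporters had 3 of 4 above the median on all arrays, Slc29a1 (mean log2 12.47), Slc29a2 (10.37) and Slc28a1 (10.26), with Slc28a2 (10.00) above it on 10. Vitamin and choline transporters had 3 of 4: the folate carrier Slc19a1 (11.17), Slc44a4 (10.95) and Slc23a3 (9.66). The nucleotide sugar group had 2 of 3, Slc35b1 (12.26) and the CMP-sialic acid carrier Slc35a1 (10.23), and Slc35f6 (6.84) was below on all. Both fatty acid transport proteins, Slc27a2 (10.97) and Slc27a1 (10.88), and both urea transporters, Slc14a2 (11.44) and Slc14a1 (10.40), were above it throughout. None of 3 peptide transporters was: Slc15a4 (9.35) and Slc15a2 (9.24), the latter a known type II cell gene, were above it on 5 arrays each, and Slc15a1 (7.01) on none.

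**Figure D1:**
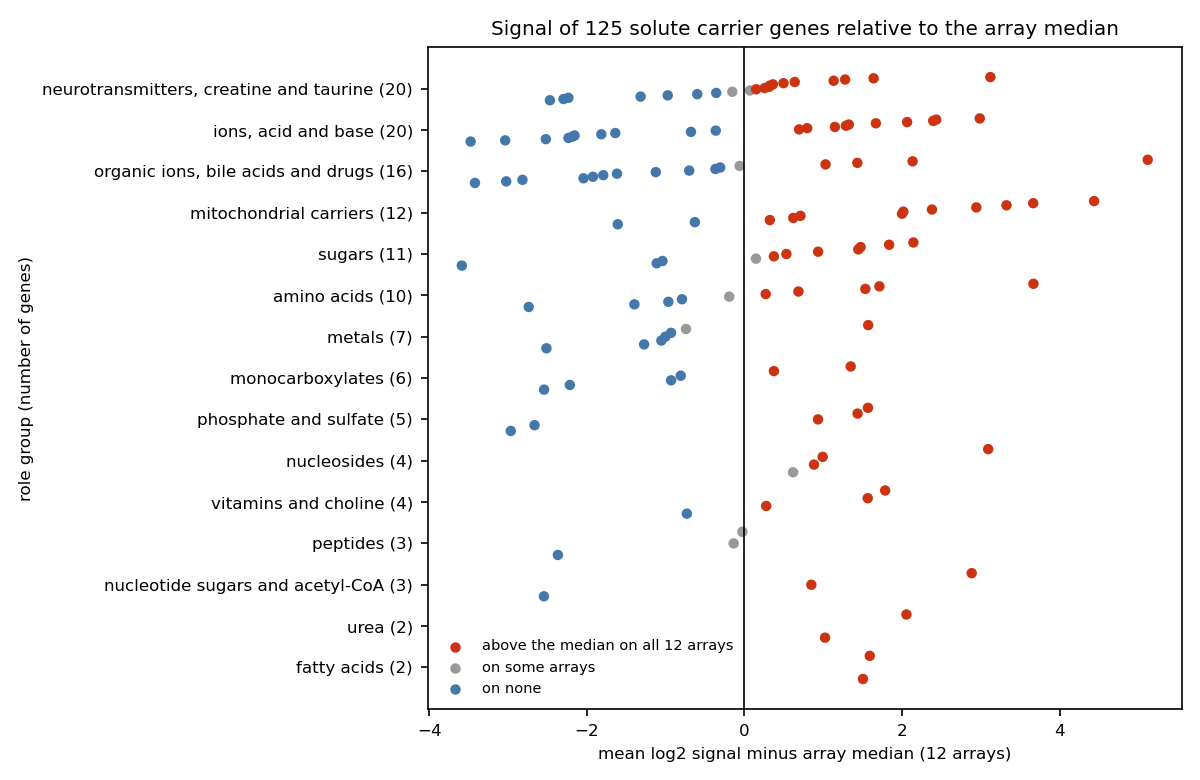
Mean log2 signal minus the array median over 12 arrays (x axis) for the 125 solute carrier genes, one point per gene, in rows by role group with the number of genes in brackets. Red points were above the median on all 12 arrays (65 genes), grey on some (9) and blue on none (51). The mitochondrial carrier row lies mostly to the right of the line, and the organic ion and metal rows mostly to the left.

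Across the 8 samples most of these genes varied little. The range from the lowest to the highest sample had a median of 0.42 log2 for the 125 genes and 0.43 for all 8740 probe sets. It was under 0.5 for 83 genes and over 1 for 7, from 0.178 (Slc8a1) to 2.93 (Slc29a1). The members that varied most are described first, with 250 bases of genomic sequence before the annotated start of the nucleoside transporters Slc29a1 and Slc28a2, which had the 2 largest shock differences with the duct open, and of Slc25a4, which had the smallest p of the members in 3 of the 7 comparisons. The windows are on the plus strand of GRCr8, from RefSeq, at chr9:22896849-22897098 for Slc29a1, chr3:129819538-129819787 for Slc28a2 and chr16:52805271-52805520 for Slc25a4. They run 5′ to 3′ up to the base before the start, with motif letters in capitals.
Slc29a1: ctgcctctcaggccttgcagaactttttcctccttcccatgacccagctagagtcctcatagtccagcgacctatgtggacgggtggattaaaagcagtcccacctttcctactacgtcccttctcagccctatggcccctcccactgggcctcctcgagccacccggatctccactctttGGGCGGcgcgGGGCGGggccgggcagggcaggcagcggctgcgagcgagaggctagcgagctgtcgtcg
Slc28a2: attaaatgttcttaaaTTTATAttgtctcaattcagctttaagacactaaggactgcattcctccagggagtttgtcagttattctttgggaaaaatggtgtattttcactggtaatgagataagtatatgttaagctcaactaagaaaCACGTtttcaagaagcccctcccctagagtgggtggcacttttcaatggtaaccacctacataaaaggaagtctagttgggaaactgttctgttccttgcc
Slc25a4: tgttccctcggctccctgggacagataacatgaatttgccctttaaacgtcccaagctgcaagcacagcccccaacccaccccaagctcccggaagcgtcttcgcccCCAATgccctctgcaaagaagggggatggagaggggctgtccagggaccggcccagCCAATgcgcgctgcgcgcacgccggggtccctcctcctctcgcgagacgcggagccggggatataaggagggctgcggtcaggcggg

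Both strands were searched for 4 short motifs. The TATA box was searched as TATAAA and the CCAAT box by the letters of its name. The core of the GC box was searched as GGGCGG, and the core of the hypoxia response element as ACGTG. No match overlaps another in the printed windows. Slc29a1 held GGGCGG 69 and 59 bases before its start, Slc28a2 held TATAAA and ACGTG on the minus strand 234 and 101 bases before it, and Slc25a4 held CCAAT 143 and 87 bases before it. Windows were found for 106 of the 125 genes, 117 windows in all. GGGCGG was in 44.4% of those and in 30.5% of all 33469 promoters in the table, ACGTG in 29.1% and 16.6%, CCAAT in 35% and 34%, and TATAAA in 9.4% and 12.9%. A match is only a match of letters. The table also holds genes that are not on the array, and the shares were not compared at like base content.

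In T/HS against T/SS lungs, the nucleoside transporters had the largest differences in both directions: Slc29a1 was lower and Slc28a2 higher in both T/HS samples than in both T/SS samples. The lactate transporter Slc16a3 lay higher in both T/HS samples, and the prostaglandin transporter Slco2a1 and the serotonin transporter Slc6a4 lower. None of these differences passed limma's test at an adjusted p of 0.05, where 0 of 125 genes and 0% of all probe sets were called, and the smallest adjusted p of a member was 0.417. At an unadjusted p under 0.05, 8 members were higher and 3 lower, 8.8% of the 125, against 8.8% of all probe sets. The T/HS pair of samples lay wholly above the T/SS pair for 26 members and wholly below it for 11, 29.6% together, against 40.1% of all probe sets. The median difference was 0.029 over members and -0.0073 over all probe sets.

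Slc29a1 encodes the equilibrative nucleoside transporter through which adenosine crosses the plasma membrane in both directions. Its log2 intensity was 12.97 and 12.87 in T/SS, 12.35 and 10.20 in T/HS, 13.13 and 13.04 in T/SS-LDL, and 12.12 and 12.56 in T/HS-LDL. All 4 shock samples lay below all 4 sham samples, and T/HS replicate 2 had a gap of -1.92 to the next lowest sample. T/HS was 1.64 ± 0.60 (SE, n = 2 samples a group) log2 lower than T/SS, 3.12-fold (limma adjusted p = 0.525). The size rested on T/HS replicate 2: without it the difference was -0.56. Without the averaged T/HS pair, which left replicate 2 alone, it was -2.72. No p is given for these, since a single sample has no spread of its own. T/HS replicate 2 is also the sample with the high interferon responsive genes, and the part of that in the low Slc29a1 value was not tested.

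Slc28a2, a sodium-coupled transporter of purine nucleosides, lay outside the naming rule and is described because of its values. Its log2 intensity was 9.71 and 8.91 in T/SS, 10.11 and 11.30 in T/HS, 10.28 and 10.24 in T/SS-LDL, and 9.59 and 10.95 in T/HS-LDL. The T/SS samples were lower than every other sample except for T/HS-LDL replicates 1 and 3, which lay between them. T/HS was 1.39 ± 0.54 higher than T/SS, 2.62-fold (limma adjusted p = 0.543), and the spread within T/HS and T/HS-LDL exceeded 1 log2. The other 2 nucleoside transporters, Slc28a1 for pyrimidine nucleosides and the equilibrative Slc29a2, stayed within ranges of 0.38 and 0.27 over the 8 samples.

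Slc16a3 encodes the monocarboxylate transporter that exports lactate from glycolytic cells. Its log2 intensity was 10.21 and 10.55 in T/SS, 10.77 and 11.01 in T/HS, 10.90 and 10.74 in T/SS-LDL, and 10.65 and 11.04 in T/HS-LDL. Both T/SS samples lay below all 6 others. T/HS was 0.51 ± 0.18 higher than T/SS, 1.43-fold (limma adjusted p = 0.499). Slc16a1, which carries lactate in either direction, was 9.68 and 9.68 in T/SS, 9.67 and 10.38 in T/HS, 9.69 and 9.68 in T/SS-LDL and 9.77 and 9.71 in T/HS-LDL, so that only T/HS replicate 2 stood out, by 0.61. Without the averaged T/HS pair the Slc16a1 difference from T/SS was 0.70, with replicate 2 standing alone for T/HS.

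**Figure D2:**
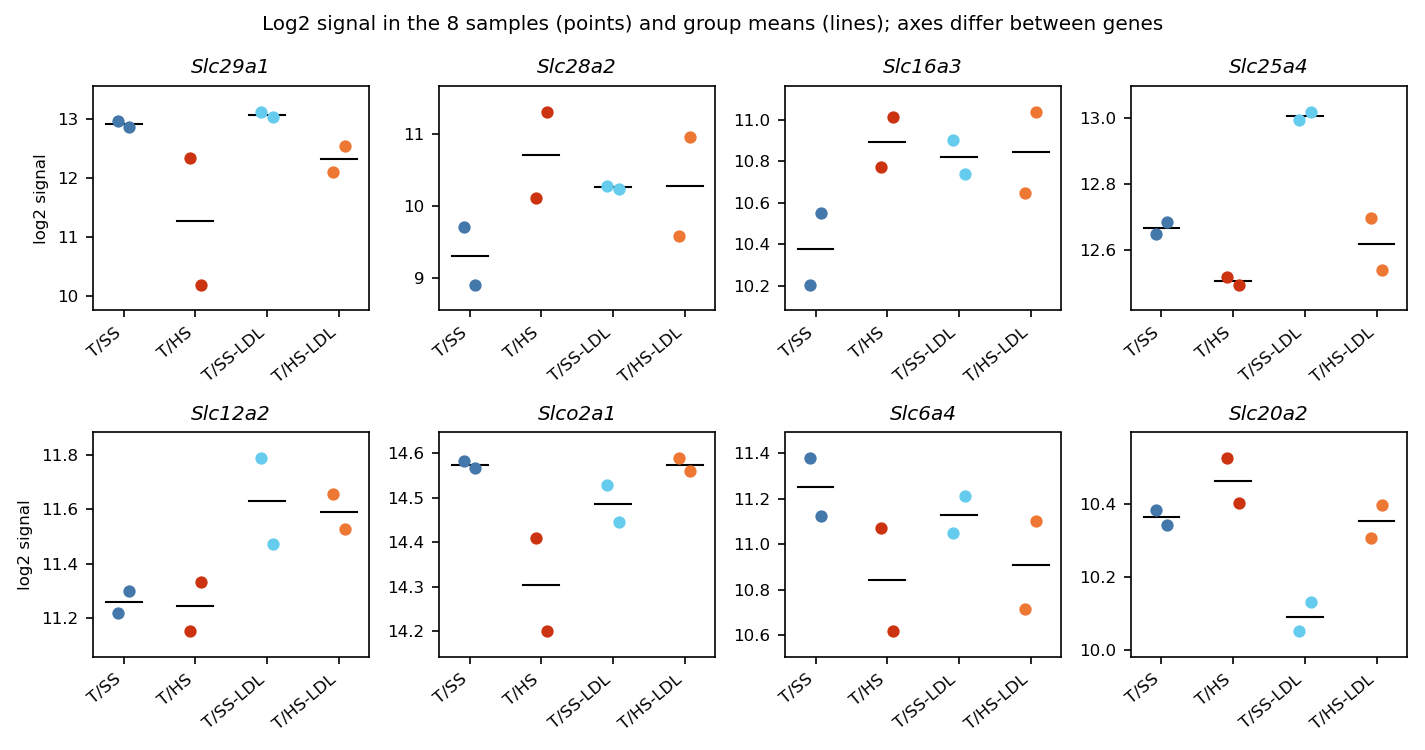
Log2 intensity (y axis, own scale per gene) of 8 solute carrier genes in the 4 groups (x axis), with the 2 samples of a group as points and their mean as a line. Slc29a1 lies lower in the T/HS and T/HS-LDL samples than in both sham groups, with 1 T/HS sample at 10.20. Slc12a2 lies higher in the 4 duct-ligated samples than in the 4 duct-open ones, and Slc25a4 is highest in T/SS-LDL.

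Of the organic anion transporters, Slco2a1, the prostaglandin transporter, was 14.58 and 14.57 in T/SS, 14.41 and 14.20 in T/HS, 14.53 and 14.45 in T/SS-LDL and 14.59 and 14.56 in T/HS-LDL. Both T/HS samples were below the other 6. The difference from T/SS was -0.27 ± 0.10 (limma adjusted p = 0.535). A second Slco2a1 probe set gave -0.51 ± 0.48 for it, with values of 11.99 and 12.10 in T/SS and 11.60 and 11.48 in T/HS. The same probe set was 10.16 in the averaged T/SS-LDL pair and 11.67 to 11.89 in the other duct-ligated samples.

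Slc10a1, the bile acid uptake transporter known from liver, had the smallest p of the members in T/HS against T/SS. It was below the array median on all arrays, at 6.46 and 6.32 in T/SS and 6.74 and 6.86 in T/HS, a difference of 0.41 ± 0.10 (limma adjusted p = 0.417). Slc22a25, of the organic anion branch of the Slc22 family, was 7.34 and 7.23 in T/SS and 7.67 and 8.04 in T/HS (0.57 ± 0.16, adjusted p = 0.419), and Slco1a3, a kidney organic anion transporter, differed by 0.25 ± 0.10. The zinc exporter Slc30a1 (0.31 ± 0.11) and the vesicular monoamine transporter Slc18a1 (0.37 ± 0.13) were likewise higher in both T/HS samples than in both T/SS samples. All 5 had signals below the array median on every array. Slc5a1, the sodium-glucose cotransporter, was 11.33 and 11.44 in T/SS and 11.17 and 11.01 in T/HS, a difference of -0.29 ± 0.11 (adjusted p = 0.525), and its second probe set gave -0.25 ± 0.15.

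Slc6a4, the serotonin transporter by which lung endothelium clears serotonin, was 11.38 and 11.13 in T/SS, 11.07 and 10.62 in T/HS, 11.05 and 11.21 in T/SS-LDL and 10.72 and 11.10 in T/HS-LDL. The T/HS samples lay just below the T/SS samples. The difference was -0.41 ± 0.20 (limma adjusted p = 0.604), and the second probe set, at 10.82 and 10.39 in T/SS and 10.18 and 9.79 in T/HS, gave -0.62 ± 0.21. Summed endothelial markers, 7 of 10 measured, were 40672 to 43281 intensity units in T/SS, 35974 to 42532 in T/HS, 38408 to 42725 in T/SS-LDL and 36788 to 39123 in T/HS-LDL. T/HS replicate 2 had the lowest endothelial marker sum of the 8 samples (35974), and also the lowest Slc6a4 and Slco2a1 values. The part of these markers in the Slc6a4 and Slco2a1 values was not tested.

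Among the metal transporters 6 of 7 had a higher mean in T/HS than in T/SS, against 69 of all 125 members. The median difference was 0.21 for these 7 and 0.029 over members. Slc30a1 and Slc41a2, 2 of the 7, had an unadjusted limma p under 0.05, against 8.8% of the 125 and 8.8% of all probe sets. The role groups were not tested as sets. Slc41a2, a magnesium transporter, was 8.09 and 8.34 in T/SS, 8.57 and 9.49 in T/HS, 8.85 and 8.19 in T/SS-LDL and 8.86 and 8.65 in T/HS-LDL. Only T/HS replicate 2 lay clear of the rest, by 0.63, and the difference between T/HS and T/SS was 0.82 ± 0.33 (limma adjusted p = 0.563). The iron importer Slc11a2 and the iron exporter Slc40a1 differed in opposite directions in the same samples: Slc11a2 was highest in T/HS-LDL replicate 2 (11.41) and T/HS replicate 2 (11.28), and Slc40a1 was lowest there.

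Peptide transporters Slc15a2 and Slc15a4 had higher means in T/HS than in T/SS. Slc15a2 was 8.66 and 9.06 in T/SS, 9.53 and 9.38 in T/HS, 9.73 and 8.64 in T/SS-LDL and 9.34 and 8.92 in T/HS-LDL, a T/HS difference of 0.59 ± 0.35 (limma adjusted p = 0.654). The T/HS values were both above the T/SS ones, while the T/SS-LDL samples spanned the whole range. The other members named as cell markers, of red cells (Slc4a1) and of heart and fat (Slc8a1 and Slc2a4), varied less. Between T/HS and T/SS Slc8a1 differed by 0.03 ± 0.10 and the red cell anion exchanger Slc4a1 by 0.18 ± 0.12. The insulin-responsive glucose transporter Slc2a4 differed by 0.25 ± 0.15.

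Some members were high or low in a single sample. In 7 of 125 genes (5.6%) 1 sample lay over 0.5 log2 from the next, against 6.09% of all probe sets, and in 4 of the 7 that sample was T/HS replicate 2: Slc29a1, Slc41a2, Slc16a1 and Slc1a3. Slc1a3, a glutamate transporter, was 11.42 there and 9.58 to 10.44 elsewhere, and its 3 other probe sets gave T/HS differences of 0.10 to 0.31 against 0.79 ± 0.57. Slc6a17, a vesicular amino acid transporter, was 10.62 in the averaged T/HS pair and 9.12 to 9.31 in the other 7 samples. With both T/HS samples the Slc6a17 difference from T/SS was 0.68 ± 0.39 (limma adjusted p = 0.643). Without T/HS replicate 2, so that the pair alone stood for T/HS, it was 1.38. Slco1a5 was 8.79 in the averaged T/HS-LDL pair and 7.14 to 7.80 elsewhere. The last 2 genes and Slc1a3 were named because of these values.

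Neutrophil marker genes differed between the groups as well. The 8 measured of 16 summed to 21234 to 26743 intensity units in T/SS, 36495 to 71593 in T/HS, 33354 to 44088 in T/SS-LDL and 62301 to 71659 in T/HS-LDL. The T/SS samples, which were lowest on this list, were also the lowest 2 for Slc16a3. The T/HS-LDL samples lay above the T/SS-LDL samples on the list, and Slc16a3 differed by 0.02 ± 0.18 between those groups. The part of neutrophil content in the solute carrier values was not tested.

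In T/HS against T/HS-LDL lungs, which differ in the lymph duct and, by the study's account, in injury, no member lay past the adjusted threshold. Slc25a30 and the sodium-potassium-chloride cotransporter Slc12a2 had lower T/HS values, as did Slco2a1 and Slc3a2, and Slc22a25 had higher ones. Past an adjusted p of 0.05, limma called 0 members and 0% of all probe sets, and the smallest adjusted p of a member was 0.775. At an unadjusted p under 0.05 there were 1 higher and 3 lower members, 3.2% against 6.37% of all probe sets. The samples did not overlap for 31 members that were higher and 13 that were lower, 35.2% against 34.1% of all probe sets, and the median difference was 0.059 for members and 0.019 for all.

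Slc25a30, a mitochondrial carrier known from kidney, was 7.71 and 7.39 in T/HS, 8.15 and 7.92 in T/HS-LDL, 7.66 and 7.68 in T/SS and 7.78 and 7.66 in T/SS-LDL. The T/HS-LDL samples were above the other 6, and T/HS differed from T/HS-LDL by -0.49 ± 0.14 (limma adjusted p = 0.775). Slco2a1 differed by -0.27 ± 0.10 and Slc22a25 by 0.46 ± 0.16, with T/HS-LDL values of 7.41 and 7.38. The pyrimidine nucleoside transporter Slc28a1 was 10.48 and 10.38 in T/HS and 10.24 and 10.13 in T/HS-LDL (0.24 ± 0.10), and the potassium-chloride cotransporter Slc12a7 was 11.22 and 11.21 against 10.97 and 10.97 (0.24 ± 0.10). Slc10a1 differed by 0.24 ± 0.10. For Slc29a1 the difference was -1.06 ± 0.60 (adjusted p = 0.78), with overlapping samples. It was -2.14 without the averaged T/HS pair, which left T/HS replicate 2 alone.

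In T/HS-LDL against T/SS-LDL lungs, shock with the duct ligated, Slc25a4 had the smallest p and the phosphate transporter Slc20a2 the next. Slc29a1 lay lower in both shock samples here as with the duct open, while Slc28a2 and Slc16a3 differed by 0.01 ± 0.54 and 0.02 ± 0.18. Past an adjusted p of 0.05, 0 members and 0% of all probe sets were called, and no member's adjusted p was under 0.998. At an unadjusted p under 0.05, 1 member was higher and 1 lower, 1.6% against 3.79% of all probe sets. The samples did not overlap for 20 higher and 12 lower members, 25.6% against 29.2%, and the medians were -0.0037 and 0.013.

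Slc25a4 encodes the ADP/ATP carrier best known from heart and skeletal muscle. It was 12.65 and 12.68 in T/SS, 12.52 and 12.49 in T/HS, 12.99 and 13.02 in T/SS-LDL and 12.69 and 12.54 in T/HS-LDL. The samples of a group lay close together, and T/SS-LDL was above the other 3 groups. T/HS-LDL differed from T/SS-LDL by -0.39 ± 0.10, 1.31-fold lower (limma adjusted p = 0.998). Heart muscle markers, 11 of 12 measured, summed to 14150 to 27310 intensity units in T/SS and 25473 to 29368 in T/HS. They summed to 29984 to 32575 in T/SS-LDL and 10671 to 25600 in T/HS-LDL. T/SS-LDL was highest on both. Slc25a4 was lowest in T/HS, and the marker sum was lowest in a T/HS-LDL sample. The T/SS samples had marker sums of 27310 and 14150, with Slc25a4 at 12.65 and 12.68. The part of heart tissue in the Slc25a4 values was not tested. Slc25a5, the ADP/ATP carrier of most dividing cells, was 12.76 and 13.11 in T/SS, 12.82 and 12.94 in T/HS, 13.28 and 13.13 in T/SS-LDL and 13.12 and 13.05 in T/HS-LDL. Both carriers' probe sets are of the kind whose probes may also match related sequences.

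Slc20a2, a sodium-phosphate cotransporter, was 10.05 and 10.13 in T/SS-LDL and 10.31 and 10.40 in T/HS-LDL, against 10.38 and 10.34 in T/SS and 10.53 and 10.40 in T/HS. The T/SS-LDL samples were below the other 6, and the T/HS-LDL difference from them was 0.26 ± 0.10 (limma adjusted p = 0.998). Slc25a30 differed by 0.32 ± 0.14, the kidney phosphate cotransporter Slc34a1 by 0.21 ± 0.09, the monocarboxylate transporter Slc16a8 by 0.20 ± 0.10 and the organic anion transporter Slc22a6 by 0.21 ± 0.11. Slc35b1, which carries nucleotides into the endoplasmic reticulum, differed by -0.20 ± 0.11 and the oxoglutarate carrier Slc25a11 by -0.32 ± 0.18. Slc29a1 differed by -0.75 ± 0.60 (adjusted p = 0.998).

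Both shock comparisons can be set side by side since they share no sample. The sign was the same in both for 69 of the 125 genes (55.2%) and for 57.1% of all probe sets. Slc29a1 was the only member over 0.25 log2 in both with the same sign, 0.8% of the 125 against 5.9% of all probe sets. In the plot of both differences most genes lie near the origin.

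**Figure D3:**
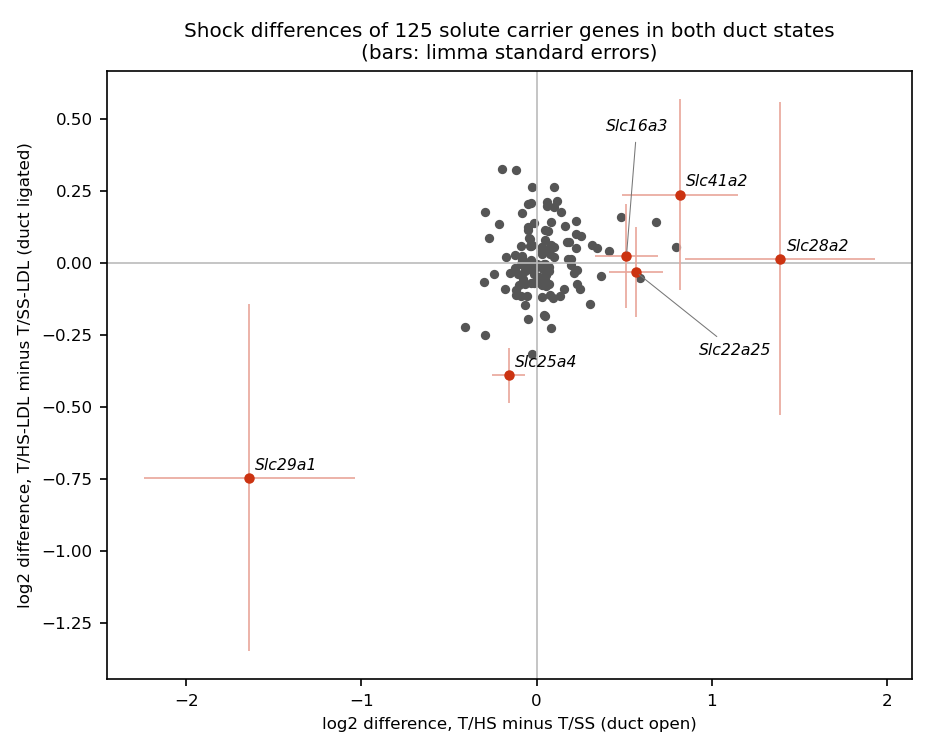
Log2 difference between shock and sham lungs with the duct open (x axis, T/HS minus T/SS) and ligated (y axis, T/HS-LDL minus T/SS-LDL) for 125 genes, with limma standard errors as bars on the 6 labelled genes. Slc29a1 lies at -1.64 and -0.75, far from the other points, and Slc28a2 at 1.39 and 0.01.

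Over both duct states together, shock samples were lower for Slc25a4 (-0.27 ± 0.07, limma adjusted p = 0.335) and Slc29a1 (-1.19 ± 0.43, adjusted p = 0.491). Slc10a1 (0.23 ± 0.07), Slc20a2 (0.18 ± 0.07), Slco1a3 (0.17 ± 0.07), Slc30a1 (0.19 ± 0.08), Slc22a25 (0.27 ± 0.11) and Slc41a2 (0.53 ± 0.23) lay higher. No member and 0% of all probe sets passed an adjusted p of 0.05. At an unadjusted p under 0.05 there were 5 higher and 2 lower, 5.6% against 9.04% of all probe sets, and the 4 shock and 4 sham samples did not overlap for 2 higher and 1 lower, 2.4% against 4.65%. Those 3 were Slco1a3 and Slc17a1, a phosphate transporter of the Slc17 family, above, and Slc29a1 below. For Slc29a1 the value was -0.65 without T/HS replicate 2 and -1.73 without the averaged T/HS pair.

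The interaction, which is the shock difference with the duct open minus that with the duct ligated, was largest in size for Slc28a2 (1.38 ± 0.77) and Slc29a1 (-0.90 ± 0.85), each under 2 standard errors. Slc5a1 had the smallest p, -0.47 ± 0.15 (limma adjusted p = 1): it was lower in T/HS than in T/SS and higher in T/HS-LDL (11.27 and 11.29) than in T/SS-LDL (11.02 and 11.19). The values were 0.60 ± 0.22 for Slc22a25, 0.37 ± 0.15 for Slc10a1, -0.36 ± 0.15 for Slco2a1, 0.41 ± 0.19 for Slc18a1, -0.44 ± 0.20 for Slc25a30, 0.31 ± 0.15 for Slc12a7 and 0.49 ± 0.26 for Slc16a3. None passed an adjusted p of 0.05, as for 0% of all probe sets, and at an unadjusted p under 0.05 there were 2 members on either side, 3.2% against 2.99% of all. The shock differences are therefore not shown to differ between open and ligated ducts for any member.

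Duct ligation in sham lungs, T/SS-LDL against T/SS, went with higher Slc25a4, Slc12a2 and Slc16a3 and lower Slc20a2, Slc16a8 and Slc5a1 values, none past the adjusted threshold. The test called 0 members and 0% of all probe sets, with a smallest adjusted p of 0.896. At an unadjusted p under 0.05, 4 members were higher and 5 lower, 7.2% against 4.23% of all probe sets. The samples did not overlap for 21 higher and 29 lower members, 40% against 40.6%, and the medians were -0.017 and -0.021.

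For Slc25a4 the ligation difference in sham lungs was 0.34 ± 0.10, 1.27-fold (limma adjusted p = 0.896), for Slc16a3 0.44 ± 0.18, for the zinc transporter Slc30a4 0.30 ± 0.13 and for Slc28a2 0.95 ± 0.54. Slc16a8, a lactate transporter known from the retinal pigment epithelium, was 8.63 and 8.73 in T/SS and 8.44 and 8.29 in T/SS-LDL (-0.31 ± 0.10). Slc20a2 (-0.27 ± 0.10), Slc5a1 (-0.28 ± 0.11) and the organic anion transporter Slc22a13 (-0.40 ± 0.16) were lower. T/SS is shared by this comparison and T/HS against T/SS, so genes for which T/SS alone is low or high, such as Slc16a3 and Slc5a1, enter both.

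Slc12a2, the sodium-potassium-chloride cotransporter that loads epithelial cells with chloride, gave the smallest p for ligation over both shock states. It was 11.22 and 11.30 in T/SS and 11.15 and 11.33 in T/HS, with the duct open, and 11.79 and 11.47 in T/SS-LDL and 11.66 and 11.53 in T/HS-LDL, with it ligated. All 4 ligated samples lay above all 4 open ones, and the difference was 0.36 ± 0.10 (limma adjusted p = 0.603). Its 3 other probe sets, with mean log2 signals of 6.81 to 7.07, gave -0.04 ± 0.08, -0.03 ± 0.14 and 0.00 ± 0.07, so the difference was seen in 1 probe set of 4. Within sham lungs it was 0.37 ± 0.14, and T/HS differed from T/HS-LDL by -0.35 ± 0.14.

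Slc3a2, the heavy chain that brings amino acid exchangers to the cell surface, was 13.02 and 12.97 in T/SS, 12.87 and 12.88 in T/HS, 13.30 and 13.10 in T/SS-LDL and 13.08 and 13.13 in T/HS-LDL. The 4 ligated samples lay above the 4 open ones by 0.21 ± 0.07 (limma adjusted p = 0.603), with 0.09 ± 0.11 from the second probe set. T/HS differed from T/HS-LDL by -0.23 ± 0.10. The other values over both shock states were 0.23 ± 0.07 for Slc25a4, 0.27 ± 0.10 for Slc25a30, -0.19 ± 0.07 for Slc20a2, -0.30 ± 0.11 for Slc22a13, -0.19 ± 0.07 for Slc16a8 and -0.21 ± 0.08 for the proline transporter Slc6a7. Again 0 members and 0% of all probe sets passed, 5 higher and 6 lower members had p under 0.05 (8.8% against 8.08% of all), and samples did not overlap for 3 higher and 4 lower (5.6% against 4.49%). Of the mitochondrial carriers 9 of 12 had a higher mean with the duct ligated, with a median of 0.057. Of all 125 members 44 had a higher mean, with medians of -0.0455 for members and -0.0237 for all probe sets. The carriers were not tested as a set.

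**Figure D4:**
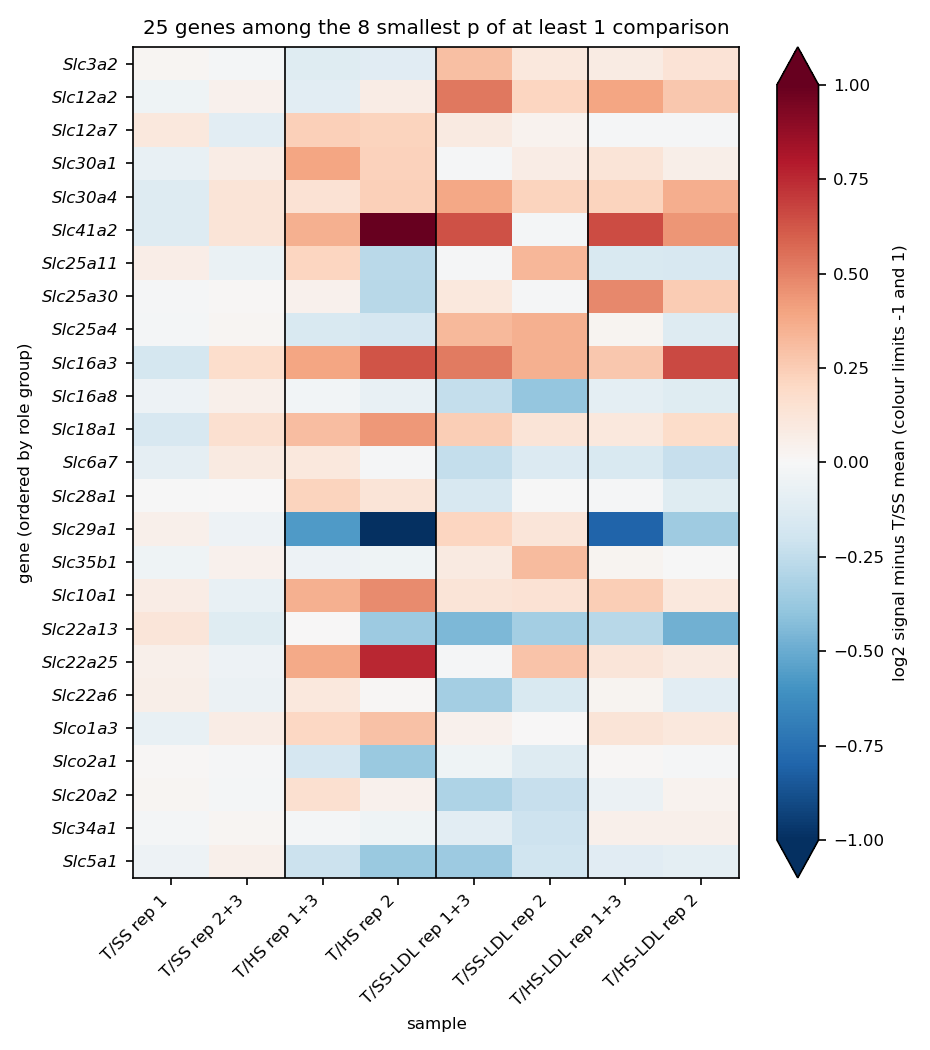
Log2 intensity minus the T/SS mean, as colour from -1 to 1, for the 25 genes (rows, ordered by role group) that were among the 8 members with the smallest p in at least 1 comparison, in the 8 samples (columns). Slc29a1 is blue in all shock samples and Slc12a2 red in the ligated ones. The 2 values beyond the colour limits are those of Slc29a1 and Slc41a2 in T/HS replicate 2.

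How the near-identical arrays were counted decided whether any member passed. With all 12 arrays taken as separate samples, an adjusted p under 0.05 was reached in T/HS against T/SS by 7 members and 7.2% of all probe sets, in T/HS against T/HS-LDL by 2 and 4.26%, and in T/HS-LDL against T/SS-LDL by 1 and 1.45%. It was reached in T/SS-LDL against T/SS by 4 members and 1.61% of all probe sets, in the interaction by 0 and 0.0114%, for shock over both duct states by 5 and 8.39%, and for ligation over both shock states by 15 and 11.1%. The 7 were Slc10a1, Slc22a25, Slc30a1, Slc12a7 and Slco1a3, higher in T/HS, and Slc5a1 and the iodide transporter Slc5a5, lower. In the other comparisons they included Slc25a4, Slc12a2, Slc25a30, Slc20a2 and Slc3a2, and in none of them Slc29a1 or Slc16a3. These counts take nearly identical arrays as separate rats and are given for comparison only.

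Several genes had more than 1 probe set, 43 of the 125, and these often disagreed on direction. All probe sets of a gene had the same sign for 21 of the 43 in T/HS against T/SS, 24 in T/HS against T/HS-LDL, 26 in T/HS-LDL against T/SS-LDL and 27 in T/SS-LDL against T/SS.

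Genes that work with these transporters were taken from a list of pumps, accessory subunits and regulators. Of 40 listed, 25 were measured, and none passed an adjusted p of 0.05 in any of the comparisons. In T/HS against T/SS 10 of 25 had a higher mean, with a median of -0.058, and 2 higher and 1 lower had p under 0.05, where 8.8% of all probe sets did. The proton pump subunits Atp6v1b2 (0.35 ± 0.11), Atp6ap1 (-0.28 ± 0.11) and Atp6v0a1 (-0.19 ± 0.10) differed in sign. Oxsr1, a kinase that regulates cotransporters of the Slc12 family, differed by 0.29 ± 0.12 (limma adjusted p of 0.482 to 0.637 for the 4 genes).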

How the data were processed

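Lung RNA was measured on 12 one-colour arrays. Per the labels, the authors made the intensity values with RMA, version not given in the sources used here, and the deposited values are linear, so log2 of the deposited intensity was taken with no further scaling. Of 8799 probe sets, 59 controls were left out and 8740 tested, of which 7006 had 1 platform symbol, 308 several and 1426 none. All 125 solute carrier symbols are current in the RefSeq gene table. Arrays of a group with a robust SD under 0.1 were averaged. Groups were compared with limma 3.58.1 in R 4.3.3 (lmFit, contrasts, eBayes; 4 residual and 2.85 prior degrees of freedom), fitted to all groups and all probe sets with Benjamini-Hochberg adjustment. The same code was tested on simulated data. The labels call the replicates biological and do not tie arrays to rats, so p-values measure the spread between these samples. The number of arrays limits the precision.

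Members and lists were chosen with earlier results of these data known. Genes were named by rule. In each comparison these were the members past an adjusted p of 0.05 or else the 8 with the smallest p. Added to them were the 3 with the highest mean in each role group and members that mark lung, blood, heart or fat cells. Of the partner genes, the 4 with the smallest p in T/HS against T/SS were named. Alternatives were 12 separate arrays with and without the replicate number as a block, the near-identical pair as a random block, quantile normalization, leaving out the dimmest 0.25 of probe sets, a prior spread following the signal, the mean of a gene's probe sets, and each sample left out. Promoter windows came from RefSeq (GRCr8).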

Additional observations from a re-analysis of the deposited data

How the results depend on the processing

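With 2 samples a group, only large and even differences could pass. The count of members past an adjusted p of 0.05 (limma) was 0 in all 7 comparisons as reported, and it stayed 0 with quantile normalization, without the dimmest 0.25 of probe sets (97 members left), with a prior spread following the signal, with the mean of a gene's probe sets and with the near-identical pair as a random block (correlation 0.961). With 12 separate arrays the counts were 7 in T/HS against T/SS, 2 in T/HS against T/HS-LDL, 1 in T/HS-LDL against T/SS-LDL, 4 in T/SS-LDL against T/SS, 0 in the interaction, 5 for shock and 15 for ligation over both states, since nearly identical arrays then count as separate samples. With the replicate number as a block on those 12 arrays they were 4, 1, 1, 0, 0, 4 and 8 in the same order. For same-numbered arrays the correlation of deviations from the group means ran from -0.166 to 0.189 over 18 pairs, 3 of them over 0.1. Of 12 arrays, 3 correlated best with their own number. Since each group holds a nearly identical pair, these values cannot decide whether arrays of the same number belong together. Leaving out 1 sample at a time left 1 sample in a group, with no spread of its own, so members past the threshold are not counted for it. Slc29a1 and Slc16a1 differed more from T/SS without the averaged T/HS pair, and Slc6a17 without T/HS replicate 2. For ligation over both shock states Slc29a1 was at 1.15 without the averaged T/HS pair. The cause was not tested. Of 822 values of genes named for a comparison, under these alternatives, 0 reversed direction. With 12 separate arrays alone 25 values of these genes passed the threshold, and others passed with the replicate number as a block. These genes were named for their small p on the same arrays, so a kept direction was favoured by the choice and does not show that the differences are firm. The count of members above the array median on all arrays was 65 as reported and with quantile normalization, and 50 with the mean of a gene's probe sets.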
